A study of Bos taurus with 10 samples.

Results

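The milk fat genes FASN, SCD and DGAT1 were followed through the methylation data of 10 bovine tissues. FASN encodes fatty acid synthase, which builds saturated fatty acids from acetyl and malonyl units. SCD encodes stearoyl-CoA desaturase, which places a double bond into saturated fatty acids. DGAT1 encodes diacylglycerol acyltransferase 1, which joins the last fatty acid to a diacylglycerol and so completes the triglyceride. Milk fat is almost wholly triglyceride, and the secretory cells of the lactating mammary gland use these enzymes heavily. Methylation of CG sites around the start of a gene is often low where the gene can be used, while CG sites inside a gene are commonly methylated whether or not it is used.

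The members were the CG sites covered by at least 8 reads in at least 1 library and lying within the UMD3.1 span of a gene or 5 kb to either side of it. The spans were chr14:1795425-1804838 for DGAT1, chr19:51384922-51403614 for FASN and chr26:21137945-21148318 for SCD. This gave 85 of the 468619 CG sites of the series, of which 42 belonged to DGAT1, 43 to FASN and 0 to SCD. Each strand of a CG counts as a site of its own. Distances are counted from the lower end of the span, taken as the start of the gene. That the 3 genes are read towards higher coordinates is background knowledge and was not checked against a UMD3.1 annotation here.

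Methylation was measured by reduced representation bisulphite sequencing (RRBS), in which DNA is cut at CCGG by *MspI* and bisulphite converts unmethylated cytosines, in 1 library per tissue from a Hereford cow and relatives. The mammary gland was sampled at d 90 of lactation and, as parenchyma, in a juvenile. The other 8 tissues were adult skeletal muscle, testis, uterus and nucleated blood cells, juvenile frontal cortex, abomasum and ileum, and fetal rumen, with testis and rumen from males and the rest from females. The labels name no treatment and do not tie a tissue to an animal, so that stage, sex, animal and library cannot be told apart from tissue. Whole tissues hold several cell types and no expression was analysed here, so the labels were not checked against marker genes.

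Coverage set what could be compared. The number of member sites per library was 44 in abomasum, 30 in testis, 17 in lactating mammary gland, 10 in juvenile mammary gland, 9 each in frontal cortex and rumen, 7 in nucleated blood cells, 6 in skeletal muscle, 4 in uterus and 0 in ileum. Abomasum and testis also held the most CG sites over the genome, 204918 and 237294 against 114369 to 165307 in the other 8 libraries, with the lowest median coverage per CG site, 10 and 16 reads against 21 to 33. No member site was covered in all 10 tissues, while 11.3 % of all CG sites were. A single tissue covered 37 of the 42 sites of DGAT1 (88.1 %) and 35 of the 43 sites of FASN (81.4 %), compared with 59.8 % of all CG sites. The cut site CCGG held 5 of the DGAT1 sites (11.9 %) and 4 of the FASN sites (9.3 %), against 19.3 % of all CG sites.

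**Figure D1:**
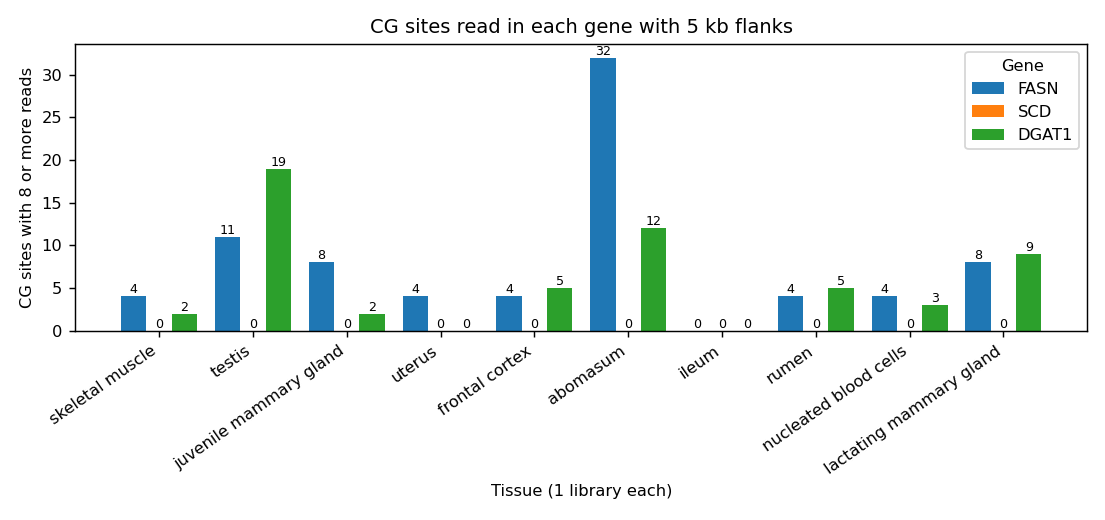
Bars give the number of CG sites with at least 8 reads (vertical axis) in each gene with its 5 kb flanks, for each of the 10 tissues (horizontal axis, 1 library each). Abomasum has the most FASN sites, 32, testis the most DGAT1 sites, 19, ileum has none, and SCD has none in any tissue.

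For SCD, not one cytosine of any context reached 8 reads within the 20374 bp of the gene and its flanks in any of the 10 libraries. An empty window was common over the genome. Of the 130555 windows of this length on the autosomes and X, 73.7 % held no covered CG site. These windows were laid end to end without regard to genes, so the share among windows around genes was not determined. Windows with at least as many CG sites as DGAT1 made up 1.78 % of the windows of its length, and for FASN this was 2.88 %. The nearest covered CG sites to SCD lay 5923 to 5962 bp after its end and were read in testis only. Their levels there were 0 of 10 reads at chr26:21154241, 1 of 10 reads at chr26:21154261 and 0 of 10 reads at chr26:21154280, where 0 of 10 reads allows a level of up to 30 %. Nothing can therefore be said of SCD methylation in either mammary gland at this depth.

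The stretches below hold some of the sites described here, and not all compared sites lie in them. They were stitched from the 5-base contexts that the files give for each cytosine (UMD3.1, forward strand, 5′ to 3′), and capitals mark the CGs with a covered site on at least 1 strand. In the last DGAT1 stretch, the final CG was covered on the reverse strand only.
FASN, chr19:51385435-51385464, 30 bases near the start with 4 of the CGs that both mammary glands share with other tissues: CGgcttggcCGcCGagcccctccacccaCG
DGAT1, chr14:1795441-1795457, just inside the start, read in abomasum: ggCGacCGCGgCGgCGc
DGAT1, chr14:1803878-1803899, the first of 3 sites late in the gene shared by up to 5 tissues: cggggCGggggtggtgggggcc
DGAT1, chr14:1803901-1803920, the other 2 of these sites: cCGctggggctggggcCGga
DGAT1, chr14:1804497-1804549, near the gene end, read on both strands in testis: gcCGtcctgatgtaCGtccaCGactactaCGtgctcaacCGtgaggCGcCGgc

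From 676 bp before its start to 752 bp into the gene, FASN had levels from 0 to 26.7 %, and the 3 levels of 20 % or more were those of testis at 513 bp and of skeletal muscle and rumen at 559 bp. In abomasum, the only library with sites before the start, 15 of 16 sites between 676 and 92 bp before it had no methylated read, and the other had 1 of 9 reads methylated. Over the 16 sites 1 of 134 reads was methylated, with 8 or 9 reads per site. Abomasum also read 8 sites from 725 to 752 bp into the gene, and 0 reads were methylated at each of them. These 24 sites lay below a level of 20 %, as did 51.1 % of all CG sites of abomasum. That share was 51.2 % for testis, 57.9 % for nucleated blood cells, 56.6 % for skeletal muscle, 59.5 % for uterus, 61.1 % in lactating and 62.8 % in juvenile mammary gland, 61.6 % in frontal cortex and 64.4 % in rumen, so that low levels were common everywhere. Skeletal muscle and rumen each had 3 of 4 and testis 7 of 8 sites near the FASN start below 20 %. The body of the gene was different in the same library, with 4 sites between 5603 and 5620 bp at 8 of 8 reads methylated. A further 4 sites between 6817 and 6846 bp had 4 of 8, 7 of 9, 7 of 8 and 8 of 8 methylated reads.

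Testis showed the same order along FASN at other positions. Its sites 12644 and 12666 bp into the gene had 18 of 20 and 19 of 20 methylated reads, and the site at 14016 bp had 19 of 19. Near the start, testis had 2 of 8 methylated reads at 513 bp and 0 methylated reads at the other 7 sites, each with 8 to 11 reads, and 34 % of all its CG sites had no methylated read. Levels above 80 % were found at 23.2 % of all CG sites of testis and 25.5 % of those of abomasum. Neighbouring sites are read by the same reads and are not independent, and no mammary gland library covered FASN beyond 559 bp.

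**Figure D2:**
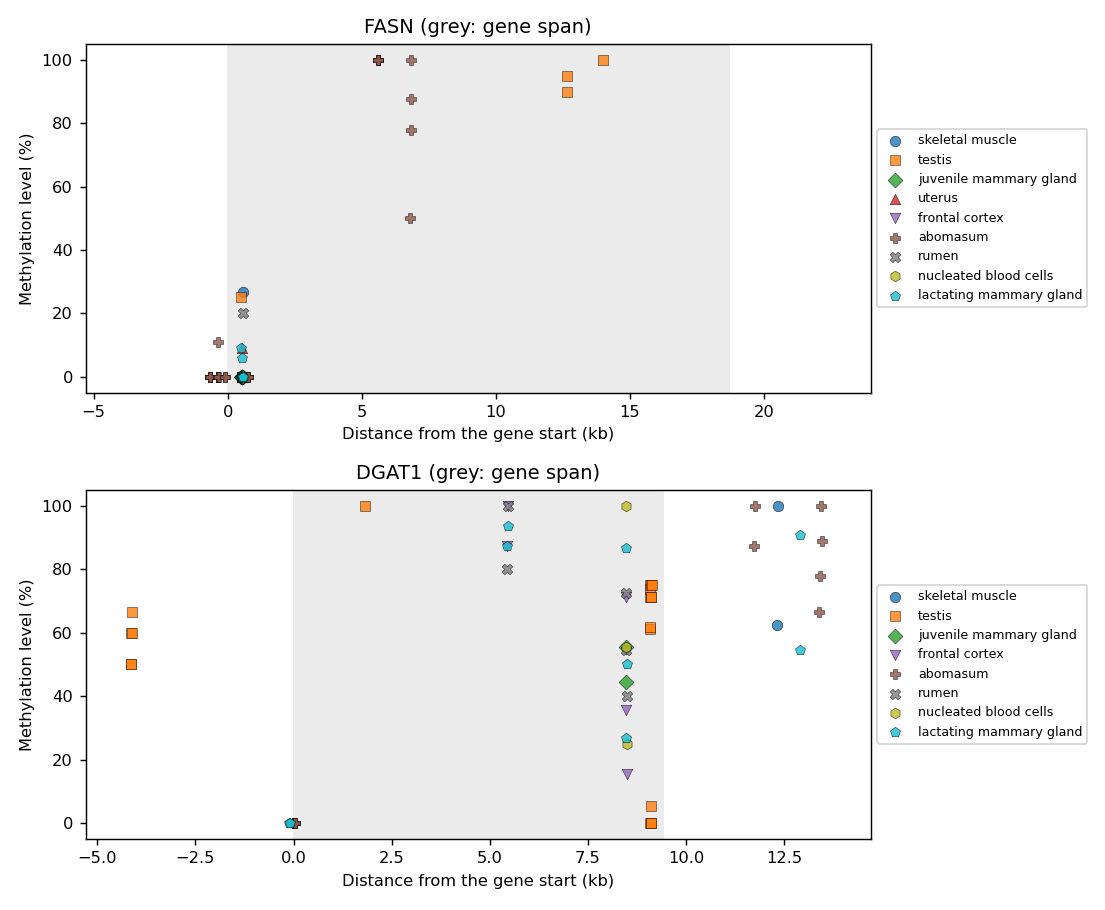
Each point is the methylation level (vertical axis, %) of a CG site in a library, by its distance from the gene start (horizontal axis, kb), with the gene span in grey and a colour and shape per tissue. In FASN all points within 1 kb of the start lie at 26.7 % or below and the points deeper in the gene between 50 and 100 %. In DGAT1 the points at the start lie at 0 and those elsewhere range from 0 to 100 %.

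The mammary glands could be compared at 8 FASN sites, all between 513 and 559 bp into the gene. The lactating gland had 1 of 11 methylated reads at chr19:51385435, 2 of 33 at chr19:51385448 and 0 at the other 6 sites, which had 11 to 33 reads each. The juvenile gland had 0 methylated reads at all 8 sites, with 8 to 12 reads each, and 45.8 % of all its CG sites had none. Both glands were thus low here, at a mean of 1.89 % in the lactating and 0 % in the juvenile gland, a difference of 1.89 points with an SD of 3.60 points over the 8 sites. For 0 of 33 reads the level could be up to 9.09 %, and for 0 of 12 reads up to 25 %. Fisher's exact test on the reads, adjusted over the 135115 CG sites read in both glands, called 0 of the 8 sites. A call needed q below 0.01 with levels 25 points or more apart, and 0.352 % of all sites read in both glands were called. An unadjusted p below 0.05 was found at 0 of the 8 sites and at 4.26 % of all sites of the pair, a share at which few or no such sites are to be found among 8. The 95 % Newcombe interval of the lactating minus the juvenile level was -24.2 to 10.4 points at chr19:51385464 and -18.6 to 19.6 points at chr19:51385448, which had the same, highest coverage of 33 and 12 reads. The intervals are not limits of detection. Sites called for this pair had a Fisher's exact p of at most 5.39e-05, so differences larger than these intervals could also go uncalled at this depth.

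At 4 of these sites, on the reverse strand, 6 further tissues could be set beside the glands. Over the 4 sites the mean level was 0 % in juvenile mammary gland, testis, frontal cortex and nucleated blood cells, 1.52 % in lactating mammary gland, 2.27 % in uterus, 5 % in rumen and 6.67 % in skeletal muscle. Both glands lay within the range of the other tissues. The juvenile gland was level with testis, frontal cortex and nucleated blood cells, and the lactating gland lay between these and uterus. The mean of the glands was 0.758 % and that of the other 6 tissues 2.32 %, with an SD of 2.91 points (n = 6 tissues, 1 library each). The difference of -1.57 points was thus smaller than the spread among tissues. It was -0.697 points without skeletal muscle.

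The levels above 0 in muscle and rumen came from 1 site, chr19:51385481, which was named after its values were seen. It had 4 of 15 methylated reads in skeletal muscle (26.7 %, interval 10.9 to 52.0 %) and 4 of 20 in rumen (20 %, interval 8.07 to 41.6 %). There were 0 methylated reads in the other 6 libraries that read it, with 32 reads in the lactating gland, 11 in the juvenile gland and 9 to 17 in testis, uterus, frontal cortex and nucleated blood cells. The lactating minus the muscle level was -26.7 points (Newcombe interval -52 to -7.6, Fisher's exact test p = 0.00765, adjusted p = 0.222). The lactating minus the rumen level was -20 points (interval -41.6 to -3.96, exact p = 0.0179, adjusted p = 0.355). Neither difference passed the adjustment over all CG sites of its pair.

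In the 1500 bp before the start of DGAT1, the lactating gland had the only covered sites, 111 and 102 bp upstream. Each had 0 of 8 methylated reads, which allows a level of up to 37.5 %. Abomasum had 0 methylated reads at 6 sites from 18 to 36 bp into the gene, with 8 or 9 reads each. The start of DGAT1 was therefore unmethylated in the reads of the 2 libraries that covered it, at different positions, and the juvenile gland did not cover it. A level of 0 was found at 41.5 % of all CG sites of the lactating gland and 44.6 % of those of abomasum.

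Farther into DGAT1 the levels were higher in the lactating gland, the only library with sites both near the start and deeper in the gene. Testis had 17 of 17 methylated reads at 1816 bp, but its levels in the gene ranged from 0 to 100 %, with the lowest near the gene end. At chr14:1800871, 5446 bp into the gene, the lactating gland and frontal cortex each had 14 of 16 methylated reads (87.5 %, interval 64.0 to 96.5 %) and rumen had 8 of 10. At chr14:1800884 the lactating gland had 15 of 16 methylated reads, frontal cortex 16 of 16 and rumen 10 of 10. Levels above 80 % made up 24 % of all CG sites of the lactating gland, 21.9 % of those of frontal cortex and 22.6 % of those of rumen. The 3 tissues were close at both sites, and the largest gap of the lactating gland to another tissue was 7.50 points, within wide intervals.

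Levels from 15.4 to 100 % were found at 3 sites about 1 kb before the end of DGAT1, the first 2 read in 5 tissues and the third in 4, without the juvenile gland. At chr14:1803884 the methylated reads were 9 of 9 in nucleated blood cells, 13 of 15 in the lactating gland (86.7 %), 10 of 14 in frontal cortex, 6 of 11 in rumen and 4 of 9 in the juvenile gland (44.4 %). At chr14:1803903, 19 bp on, the order was another, with 8 of 11 in rumen, 5 of 9 in both nucleated blood cells and the juvenile gland, 5 of 14 in frontal cortex and 4 of 15 in the lactating gland (26.7 %). At chr14:1803918 the lactating gland had 7 of 14, rumen 4 of 10, nucleated blood cells 2 of 8 and frontal cortex 2 of 13 methylated reads. The lactating gland was thus next to the highest at the first site, the lowest at the second and the highest at the third.

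The first 2 of these sites were the only DGAT1 sites read in both glands. The lactating gland was higher by 42.2 points at the first (Newcombe interval 4.31 to 69.5, Fisher's exact test p = 0.0606, adjusted p = 1). At the second the lactating minus the juvenile level was -28.9 points (interval -58.9 to 9.5, exact p = 0.212, adjusted p = 1). The differences had opposite signs, so that the mean over both sites was 56.7 % in the lactating and 50 % in the juvenile gland, 6.67 points apart with an SD of 50.3 points over the sites. Of the 2 sites 0 were called, beside 0.352 % of all sites for this pair, and 0 had an unadjusted p below 0.05, beside 4.26 % of all sites.

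Over the same 2 sites the mean level was 53.6 % in frontal cortex, 63.6 % in rumen and 77.8 % in nucleated blood cells. The juvenile gland, at 50 %, lay below all 3, and the lactating gland, at 56.7 %, lay within their range. The mean of the glands was 53.3 % and that of these 3 tissues 65 %, with an SD of 12.2 points (n = 3 tissues, 1 library each). The difference of -11.7 points was close in size to this SD, which rests on only 3 tissues. Without the juvenile gland 3 sites could be used, and the lactating minus these tissues was 2.18 points. Over the first 2 of these sites the lactating gland lay lower than these tissues, at 56.7 % against 65 %. At the added site, chr14:1803918, the lactating gland was the highest.

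**Figure D3:**
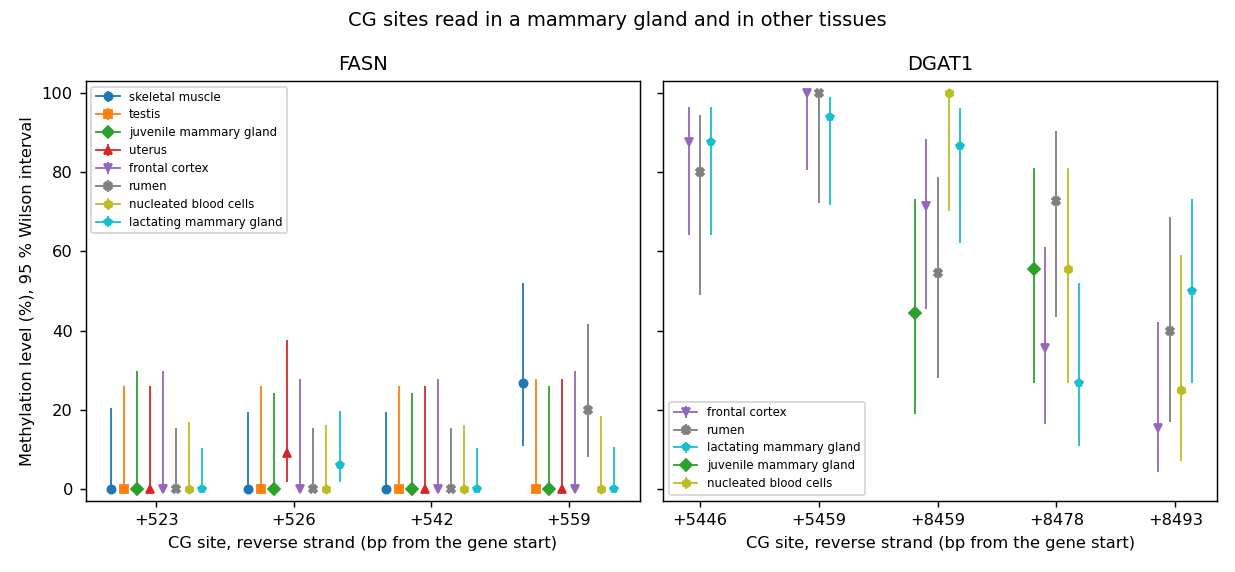
Points give the methylation level (vertical axis, %) with its 95 % Wilson interval at CG sites of the reverse strand (horizontal axis, bp from the gene start), with a colour and shape per tissue. The FASN sites lie at or near 0 except for muscle and rumen at 559 bp, and the DGAT1 sites at 8459 to 8493 bp spread from 15.4 to 100 % with overlapping intervals.

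Against the other 8 tissues, 75 comparisons of a member site between a gland and a tissue could be tested, in 12 of the 16 pairs. Of the 41 with the lactating gland 0 were called. All CG sites were called at 0.992 % for its pair with skeletal muscle, 6.49 % with testis, 0.971 % with uterus, 1.53 % with frontal cortex, 1.14 % with rumen and 3.22 % with nucleated blood cells. Of the 34 with the juvenile gland 0 were called as well, where the shares over all CG sites were 0.563 % with skeletal muscle, 5.44 % with testis, 0.409 % with uterus, 0.966 % with frontal cortex, 0.401 % with rumen and 2.67 % with nucleated blood cells. No member site was shared with abomasum or ileum, where the shares were 0.802 % and 2.12 % for the lactating gland and 0.427 % and 1.4 % for the juvenile gland. With shares this low, 0 calls among so few sites were not informative about the genes.

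An unadjusted p below 0.05 was found in 4 of the 75 comparisons. The comparisons of the lactating gland with muscle and with rumen at the last shared FASN site were among them. The others were in DGAT1, where the juvenile minus the nucleated blood cell level was -55.6 points at chr14:1803884 (Fisher's exact test p = 0.0294, adjusted p = 0.341) and the lactating minus the rumen level was -46.1 points at chr14:1803903 (exact p = 0.0447, adjusted p = 0.647). Over all CG sites 5.65 to 16.0 % had an unadjusted p below 0.05 in these 12 pairs and the pairs with abomasum and ileum. In each of the 75 comparisons the coverage would have allowed a call had one library been at 0 and the other at 100 %. With single libraries the test compares libraries and not tissues, and the intervals cover the counting error of reads only. PCR copies were not told apart, so the intervals may be too narrow even for that.

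Outside the shared sites, the downstream flank of DGAT1 was read at different positions in each library. Abomasum had 7 of 8 and 8 of 8 methylated reads at 11739 and 11749 bp from the start and 66.7 to 100 % at 4 sites from 13395 to 13462 bp. The lactating gland had 10 of 11 and 6 of 11 methylated reads at 12896 and 12915 bp, and skeletal muscle had 5 of 8 and 8 of 8 at 12314 and 12334 bp. The 10 sites of this flank thus ranged from 54.5 to 100 %. In the ARS-UCD2.0 annotation the next gene here is HSF1, which encodes a heat shock transcription factor and overlaps the end of DGAT1, so that the flank may lie in it, and positions were not carried over between builds. In the upstream flank, testis alone had 5 sites, 4147 to 4113 bp before the start, at 50 to 66.7 %.

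In testis, 6 CGs near the end of DGAT1 were read on both strands. A CG reads as CG on either strand, and both strands of it are normally methylated alike. The reverse strand had 15 of 20, 13 of 21, 15 of 21, 15 of 21, 15 of 21 and 15 of 20 methylated reads from the first to the last CG. The forward strand had 11 of 18 and 14 of 19 at the first 2 CGs, then 0 of 19 at 3 CGs and 1 of 19 at the last. The forward minus the reverse level was -13.9 points (Newcombe interval -40.3 to 14.8) at chr14:1804499 and 11.8 points (interval -16.6 to 37.3) at chr14:1804511, and neither was called. The strands were farther apart at chr14:1804517, chr14:1804526, chr14:1804536 and chr14:1804543.

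By the rule used for pairs of libraries, 4 of the 6 CGs were called. At the first 3 of these 4 CGs the forward minus the reverse level was -71.4 points (Newcombe interval -86.2 to -44.2, Fisher's exact test p = 1.45e-06, adjusted p = 3.32e-05 for each). At the last it was -69.7 points (interval -84.2 to -40.5, exact p = 1e-05, adjusted p = 0.000173). The comparison was chosen after the values were seen. Neighbouring sites are read by the same reads, so the 4 CGs, each with 19 forward and 20 or 21 reverse reads, are not independent observations. The adjustment covers the 51283 CGs read on both strands in testis. Of these 10.4 % were called in either direction and 5.27 % with the forward strand lower. No DGAT1 CG passed a Bonferroni adjustment. In the other 9 libraries 0.948 to 2.36 % of such CGs were called, and only testis read these CGs. The 4 CGs lie 2 to 28 bp before a CCGG at chr14:1804545-1804548, and the 2 CGs that were not called lie 34 and 46 bp before it. Non-CG cytosines of the same stretch had 4 of 170 methylated reads on the forward and 4 of 122 on the reverse strand. The part of the cut site, or of PCR copies, in this difference was not tested.

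**Figure D4:**
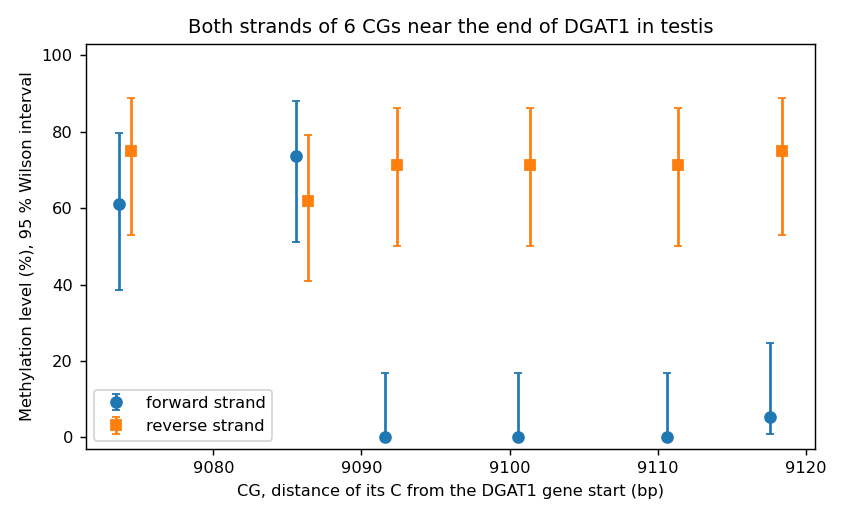
Methylation level (vertical axis, %) with its 95 % Wilson interval on the forward and reverse strand of 6 CGs in testis, by distance from the DGAT1 start (horizontal axis, bp). The strands overlap at the first 2 CGs, while at the last 4 the forward strand lies at 0 to 5.26 % and the reverse strand at 71.4 to 75 %.

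FASN had 3 CGs read on both strands, at 522, 525 and 541 bp, in the lactating gland, the juvenile gland and testis. None differed between strands by Fisher's exact test, with an unadjusted p of 1 at each. The highest level was 2 of 33 methylated reads, on the reverse strand of the CG at 525 bp in the lactating gland.

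Non-CG cytosines of both genes were nearly unmethylated in the glands. In DGAT1 the mean level was 0.456 % over 42 non-CG sites of the lactating gland and 0 % over 20 of the juvenile gland. In FASN it was 1.35 % and 0.463 %, each over 27 sites. Over all non-CG sites of these libraries the mean was 1.36 % in the lactating and 1.31 % in the juvenile gland. The genes were not tested against these means. Cytosines that bisulphite fails to convert are also counted as methylated, and the paper cautions that its non-CG levels could be too high for this reason.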

How the data were processed

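RRBS libraries of 10 tissues, 1 per tissue, were used. After quality trimming, the authors mapped the reads to UMD3.1 by a SOAPaligner-based pipeline and deposited, for each cytosine with at least 8 reads, its reads as a count without normalization and its methylation level as a fraction. Their further columns of error-model read numbers, p-values and FDR per cytosine were not used. Methylated reads were the level times the reads, whole at every cytosine. The reads summed over cytosines ranged from 16125651 to 40089443.

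Members and lists were chosen with earlier results of these data known. Gene spans came from the selection rule; no UMD3.1 annotation was used here, so exons, other milk fat genes and genes of similar pattern were not analysed. Fisher's exact tests with Benjamini-Hochberg adjustment covered all CG sites read in both libraries of a pair (17 pairs), called at q below 0.01 and 25 points. The naming rule asked for called sites or sites read in all 10 tissues; neither occurred, so the sites named were chosen after their values were seen. Intervals are 95 % Wilson or Newcombe intervals, and a count of 0 was taken to allow 3 reads. Alternatives were coverage minimums, weighting, strand pooling, flanks and thresholds. Python 3.11.15, NumPy 2.4.6, pandas 2.3.3, SciPy 1.17.1, Numba 0.67.0 and matplotlib 3.10.9 were used.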

Additional observations from a re-analysis of the deposited data

How the results depend on the processing

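The counts of called sites between the glands and against the other 8 tissues were 0 in both genes with minimums of 10 and 20 reads and with summed strands, where sites were left. Starting from 0, the 40-point minimum and Bonferroni adjustment could add no call, and leaving out the flanks removed no shared site, so these say nothing about stability. With 20 reads no member site was shared by both glands, and with 10 reads none of DGAT1. No value could be given over sites read in all 10 tissues, since there were none, and the comparison of the glands with the range of all 8 other tissues could not be made. Sites read in both glands and at least 3 other tissues were used instead, a choice made after seeing the data. Leaving out 1 library at a time, the gland means minus the other tissues ranged from -15 to 2.18 points in DGAT1 and from -2.32 to -0.697 points in FASN, where leaving out skeletal muscle gave the smallest and the lactating gland the largest difference. With a minimum of 10 reads the FASN difference was -2.71 points. In DGAT1 the -15 points came without the lactating gland, over the same 2 sites. The 2.18 points came without the juvenile gland but over 3 sites, so the change of sign is not due to the gland left out alone. Leaving out another tissue left fewer than 3 others. The mean difference between the glands was 1.71 to 2.73 points in FASN under the alternatives that could be run. In DGAT1 none of those run could move it, since both shared sites lie in the gene on 1 strand with equal coverage. The strand difference in testis was called at 4 CGs with a minimum of 10 reads or 40 points and at 0 with Bonferroni adjustment. Levels resting on 8 or 9 reads have wide intervals, each tissue has 1 library, and most member sites were read in a single tissue. No paired analysis was possible because each tissue has 1 library and the labels give no replicate numbers.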

Other observations

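Farther from the genes, coverage was denser around DGAT1 and sparse around FASN. Between 5 and 50 kb from DGAT1, 74 to 178 CG sites were read per library, also in ileum and uterus, which read none in the gene. Their mean level was 1.67 % in frontal cortex, 2.35 % in juvenile mammary gland, 2.47 % in skeletal muscle, 3.02 % in rumen, 4.15 % in uterus, 4.31 % in ileum, 6.85 % in lactating mammary gland, 6.89 % in abomasum, 8.54 % in nucleated blood cells and 12.7 % in testis. The libraries read different sites, so these means are not matched by position. The same distance from FASN held 8 to 16 CG sites per library. Their mean level was 38.2 % in testis and 17.5 % in ileum, and from 0 % in abomasum to 1.72 % in rumen in the other 8 libraries. These means are not matched by position either, and rest on 13 sites in testis and 10 in ileum.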
